A study of Mus musculus with 22 samples.

Results

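miR-21, a microRNA best known as an oncogenic miRNA, was followed across 22 mammary glands of young female mice on 4 diets. It was taken as the only panel probe named mmu-miR-21, 1 of 599 endogenous probes, of which 254 passed a background filter and were tested. Each gland was the left gland of the 4th pair of a C57BL/6 mouse that began its diet at 4 to 5 weeks of age and ate it for 3 weeks. The basal AIN-93G diet was the control (5 lanes), and the others were 10% flaxseed (6 lanes), 3.67% flaxseed oil (5 lanes) and 0.15% SDG, the lignan secoisolariciresinol diglucoside (6 lanes). The labels give no transgene, tumour or carcinogen, and 2 of the 24 glands (basal 5 and oil 5), which the authors excluded on quality, were not analysed here. Total RNA of each gland was counted in 1 lane of a NanoString nCounter miRNA panel, which counts fluorescent barcodes bound to each miRNA without amplification.

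A microRNA guides the Argonaute protein to messenger RNAs that pair with its seed, bases 2 to 8, and lowers their output. miR-21 is made by epithelial, immune and stromal cells, is raised in many solid tumours including breast cancers, and represses growth inhibitors such as PDCD4. The miR-200 family and miR-205, which appear later, are markers of epithelial cells, and the miR-200 family holds down the repressors ZEB1 and ZEB2 of the epithelial state.

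The sequences are shown because the probe's target is set by them, with the seed in capitals (RefSeq, GRCm38.p6). The panel names its miR-21 probe without an arm, and this was read as the older name of miR-21a-5p, the first sequence. The others are the other arm of the same hairpin and the 2 mouse paralogs.
miR-21a-5p: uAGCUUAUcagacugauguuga
miR-21a-3p: cAACAGCAgucgaugggcuguc
miR-21b: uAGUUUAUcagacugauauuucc
miR-21c: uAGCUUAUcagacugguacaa
miR-21a-5p lies at chr11:86584120-86584141 on the minus strand, in a hairpin of 92 bases at chr11:86584067-86584158. The hairpin falls inside the span of Vmp1, a gene of a vacuole membrane protein on the same strand. In the hairpin the mature miRNA is given in capitals and takes bases 18 to 39.
Mir21a hairpin: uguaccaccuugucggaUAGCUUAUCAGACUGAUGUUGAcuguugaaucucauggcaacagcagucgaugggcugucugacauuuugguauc
Counted from 1 at the 5′ end of miR-21a-5p, miR-21b differed by C4U, G18A, G21U and A22C over 22 positions, and the first of these lies in the seed. miR-21c kept the seed and differed by A16G, G18A, U19C, U20A and G21A over 21 positions. Among 1679 mouse mature miRNAs in the table, miR-21c was the only other one with the seed AGCUUAU. Neither paralog nor miR-21a-3p has a probe under its own name on the panel, and whether the miR-21 probe also counts the paralogs was not tested. miR-590-5p, which shares the seed in human and is on the panel, is not among those 1679 miRNAs, so its mouse seed was not compared. It exceeded background in 0 of 22 lanes, with counts from 1 to 23.

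Before miR-21 is compared, 3 lanes stand apart. In basal 1, flaxseed 3 and SDG 5 the probe for miR-720, a tRNA fragment once listed as a miRNA, took 65.4%, 53.7% and 47.4% of the endogenous counts, against 2.37% to 8.61% in the other 19 lanes. Endogenous counts ranged from 260551 to 762146 per lane. The main results are therefore also given without basal 1 or without these 3 lanes. No 2 lanes held identical counts.

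miR-21 was abundant in every gland. The basal lanes 1, 2, 3, 4 and 6 held 1190, 12417, 9373, 12047 and 27079 counts. The flaxseed lanes held 7738 at the lowest, 13571 in flaxseed 4 and 27063 at the highest. The oil lanes 1, 2, 3, 4 and 6 held 13785, 25848, 18455, 18295 and 14914 counts. Basal 1 was the only lane under 7738. In the SDG lanes the counts lay between 9219 and 14384. All 22 lanes exceeded the background threshold, the mean plus 2 SD of the lane's 8 negative controls, by 53.2 to 806 times.

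As a share of all endogenous counts miR-21 made up 0.327% in basal 1, with a 95% exact binomial interval of 0.308% to 0.346%, and 1.91% to 3.85% in the other 21 lanes. These intervals cover counting error only. When the miR-720 counts were left out of the total, basal 1 stood at 0.944%, still the lowest lane, and the others spanned 2.0% (flaxseed 6) to 4.36% (flaxseed 3). The lowest of the others was 2.12-fold above basal 1. By this share flaxseed 3 and SDG 5 (3.98%) were the highest lanes, while by the share of all endogenous counts, at 2.02% and 2.10%, only basal 1 and flaxseed 6 (1.91%) lay below them.

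**Figure D1:**
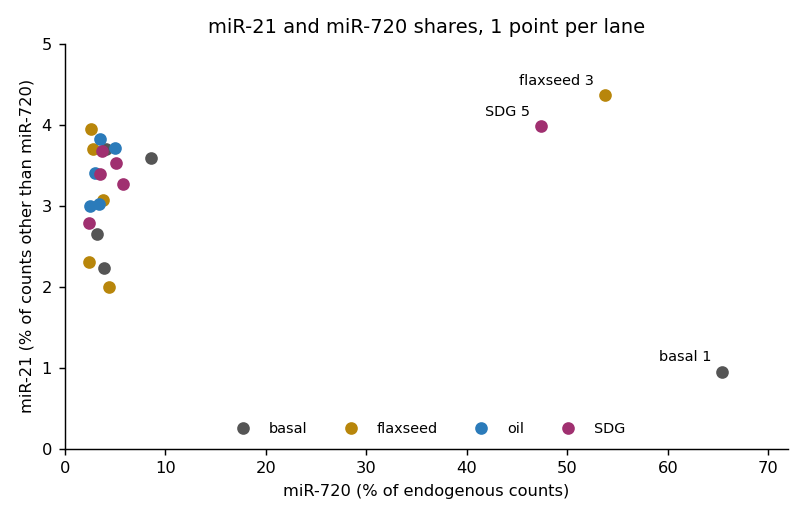
Each point is 1 lane, coloured by diet, with the miR-720 share of endogenous counts in percent on the x axis and the miR-21 share of all other endogenous counts in percent on the y axis. Of the 3 lanes above 40% miR-720, basal 1 lies lowest at 0.944% and flaxseed 3 and SDG 5 lie highest at 4.36% and 3.98%.

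Levels were then put on a common scale, log2 CPM, the log2 of a probe's scaled count, after trimmed-mean (TMM) scaling between lanes. The basal lanes 1, 2, 3, 4 and 6 stood at 12.94, 14.88, 14.46, 14.42 and 14.93. The flaxseed lanes ran from 14.22 (flaxseed 6) through a median of 14.80 to 15.70 (flaxseed 3). The oil lanes stood at 14.63, 14.92, 14.75, 14.61 and 15.01. The 4 diets overlapped, and the lanes at both ends of the whole range, basal 1 and flaxseed 3, were lanes led by miR-720. The SDG lanes ran from 14.55 through a median of 14.76 to 15.10, the highest of them SDG 5. The other 19 lanes, pooled over the diets, lay between 14.22 and 15.05, a 1.78-fold range.

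The mean was 14.33 ± 0.81 (SD, n = 5) in basal, 14.78 ± 0.18 (SD, n = 5) in oil, 14.79 ± 0.18 (SD, n = 6) in SDG and 14.81 ± 0.55 (SD, n = 6) in flaxseed glands. In that order no diet differed from its neighbour beyond the spread of its lanes. Without basal 1 the basal mean was 14.67 ± 0.27 (SD, n = 4), and without flaxseed 3 the flaxseed mean was 14.63 ± 0.37 (SD, n = 5). In bulk tissue such as this, fewer cells of a type and less miRNA per cell cannot be told apart. In basal 1 miR-21 was 3.32-fold below the mean of the other basal lanes. Only 14 of 253 other probes fell as far or farther there, while 118 of the 253 were lower at all and the median difference was 0.09 on the log2 scale.

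**Figure D2:**
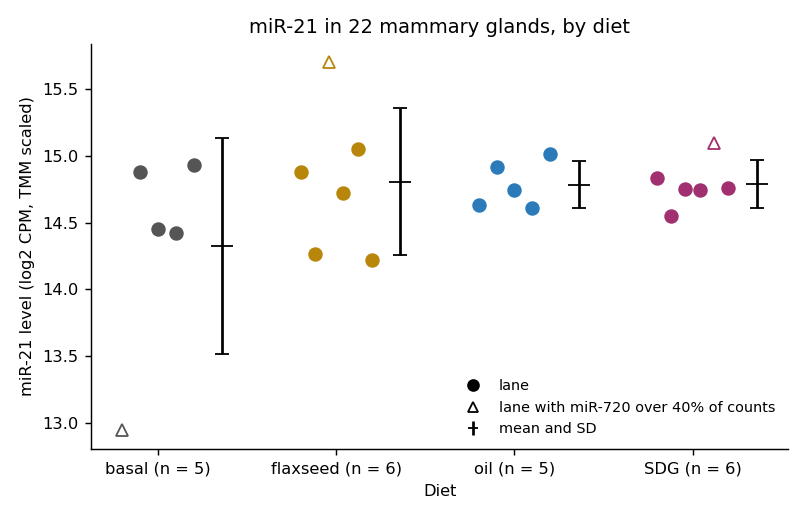
Points are lanes, with the TMM-scaled log2 CPM of miR-21 on the y axis and the diet on the x axis. Open triangles are lanes with miR-720 over 40% of counts, and bars show the mean and SD of all lanes of a diet. Basal 1 at 12.94 and flaxseed 3 at 15.70 are the extremes, and the 4 diets overlap.

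The first question of the design is whether flaxseed or either of its components went with another miR-21 level than the basal diet. No difference was detectable. In the edgeR quasi-likelihood fit miR-21 was 0.43 higher on the log2 scale with flaxseed than with the basal diet (95% interval -0.16 to 1.01, adjusted p = 0.659). With oil it was 0.32 higher (interval -0.29 to 0.93, adjusted p = 0.658). With SDG it was also 0.32 higher (interval -0.26 to 0.91, adjusted p = 0.850). These 3 comparisons share the same 5 basal lanes. Without basal 1 the differences were 0.20, 0.12 and 0.12, and with flaxseed 3 and SDG 5 left out too they were -0.02, 0.11 and 0.02. The comparison over any diet gave F = 0.80 (edgeR, adjusted p = 0.807).

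The differences among the 3 flaxseed-derived diets were smaller. Flaxseed was 0.11 above oil on the log2 scale (interval -0.48 to 0.69, edgeR adjusted p = 0.885). It was 0.10 above SDG (interval -0.46 to 0.66, edgeR adjusted p = 0.983). Oil stood -0.01 from SDG (interval -0.59 to 0.58, edgeR adjusted p = 0.996). The direction of these small differences changed with the scaling of the lanes and with the lanes left out.

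Two-sided exact permutation tests of the mean log2 CPM, adjusted over the 6 pairs, passed in none of them. Flaxseed minus basal was 0.48 (exact p = 0.342, adjusted p = 0.684), oil minus basal 0.46 (exact p = 0.222, adjusted p = 0.667) and SDG minus basal 0.46 (exact p = 0.203, adjusted p = 0.667). The other 3 differences were at most 0.02 in size (exact p = 0.939 or higher). Without basal 1 the differences from basal were 0.13, 0.11 and 0.12 (exact p = 0.752, 0.444 and 0.448, adjusted p = 0.983 for each), and without the 3 lanes -0.045, 0.11 and 0.054 (exact p = 0.778, 0.444 and 0.730, adjusted p = 0.778 for each).

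For background, edgeR called 0 of 254 probes at adjusted p under 0.05 in each comparison, which is 0%. At unadjusted p under 0.05 it passed 9.06% of the 254 probes for flaxseed against basal, 15.7% for oil against basal and 5.12% for SDG against basal. The shares were 24% for flaxseed against oil, 5.12% for flaxseed against SDG, 7.48% for oil against SDG and 14.6% for any diet. miR-21 was not among them in any comparison. limma-voom called 0 probes in all comparisons. DESeq2 called 6 for oil against basal, 30 for flaxseed against oil and 8 for any diet, again without miR-21, and 0 in the other 4.

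**Figure D3:**
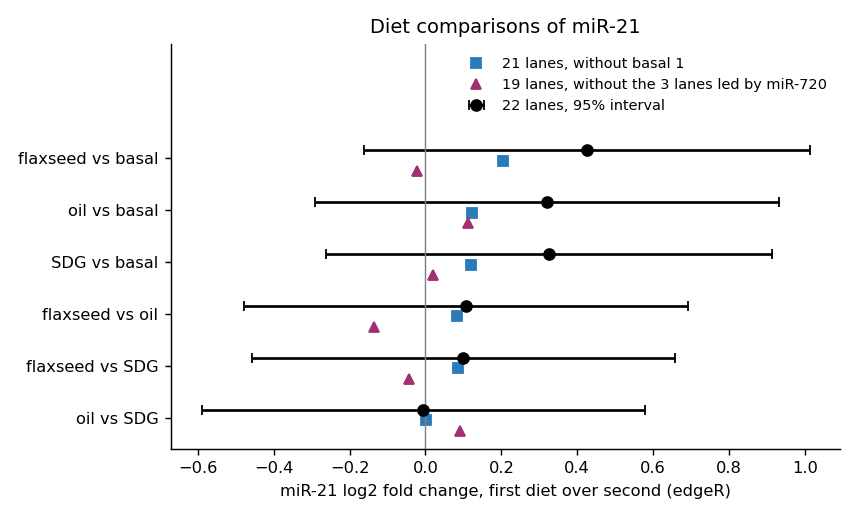
Circles are the log2 fold changes of miR-21 (edgeR) over 22 lanes for 6 pairs of diets, first over second, with 95% intervals. Squares leave out basal 1 and triangles leave out the 3 lanes led by miR-720. All 6 intervals include 0, and the 3 differences from basal shrink from 0.32 to 0.43 to between 0.12 and 0.20 without basal 1.

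Other miRNAs linked to the processes in which miR-21 is known were read beside it, as 4 lists that leave miR-21 itself out. Of the breast oncogenic list 10 of 14 members were tested and 0 were called in any comparison over 22 lanes. Its median log2 fold change was -0.04 with flaxseed, 0.09 with oil and -0.14 with SDG against basal, where the median of all other tested probes was 0.04, -0.03 and -0.01. With flaxseed its ends were miR-181a, at 0.61 ± 0.30 (SE), and miR-155, a miRNA of activated immune cells, at -0.64. In 21 of 22 lanes the miR-155 count was below a positive control product described later, and how much of it is miR-155 was not tested. All 15 members of the breast tumour suppressor list were tested, and 0 were called. Its medians against basal were -0.07, -0.05 and 0.02. Its ends with oil were miR-146a, a brake on inflammatory signalling, at 1.01 ± 0.47 (SE), and miR-206, a muscle miRNA, at -1.66.

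Of the inflammation induced list 5 of 6 members were tested, with medians of 0.05, -0.28 and -0.12 and 0 calls. The fibrosis list, all 9 of whose members were tested, had medians of 0.24, 0.07 and 0.14 and 0 calls. Its highest member with flaxseed was miR-27b at 1.37 ± 0.49 (SE), and its lowest was miR-199a-5p at -0.15. The background of called probes in these comparisons was 0%, so the lists and the panel as a whole gave the same count. Over the 19 lanes without the 3 led by miR-720, 0 members of the 4 lists were called against basal, where edgeR called 0% of 242 probes with flaxseed and SDG and 0.413% with oil. The medians for flaxseed, oil and SDG were -0.04, 0.04 and -0.09 in the oncogenic, 0.0084, -0.03 and -0.06 in the tumour suppressor, 0.04, -0.04 and -0.16 in the inflammation induced and 0.05, 0.02 and -0.08 in the fibrosis list. The ends named for flaxseed against basal moved too, to 0.10 for miR-181a, -0.025 for miR-155, 0.18 for miR-27b and -0.095 for miR-199a-5p. Those named for oil against basal changed little, with miR-146a at 0.98 and miR-206 at -1.75. In flaxseed against oil, where edgeR then called 11.6% of 242 probes, 1 member each of the tumour suppressor and inflammation induced lists was called. miR-34a, a p53 target, was lower with flaxseed (-0.63 ± 0.16 SE on the log2 scale, edgeR adjusted p = 0.0307), and the myeloid miR-223 was higher (0.59 ± 0.13 SE, edgeR adjusted p = 0.0275). These 2 were named after their values had been seen.

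The next question was which miRNAs varied with miR-21 from gland to gland. Likeness was measured as Pearson's r between log2 CPM values over lanes, given here as a description. All points share the lane's scaling, so a shift in scaling moves both miRNAs of a pair. Over 22 lanes the 10 highest of 253 probes were let-7i (r = 0.80), miR-27a (0.78), miR-29a (0.77), miR-450a-5p (0.77), miR-340-5p (0.76), miR-30e (0.74), miR-872 (0.73), miR-141 (0.69), the shared probe of miR-20a and miR-20b (0.67) and let-7g (0.66). The median over the 253 probes was -0.08.

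Much of that ranking rested on the 3 lanes led by miR-720. Of these 10 probes, which were chosen by r, 9 had their lowest level of all lanes in basal 1. The same count over all 253 probes was not made. In basal 1 miR-872 had 10 counts, under that lane's background threshold of 22.4. Ranks showed little of the relation for several of them, with Spearman's rho at 0.05 for miR-29a, a miRNA that represses collagens, and at 0.16 for miR-27a. Without basal 1 only 3 of the 10 stayed among the 10 highest. There r was 0.73 for let-7i, 0.53 for miR-29a and 0.39 for both miR-27a and let-7g. Without all 3 lanes led by miR-720 (n = 19 lanes) r was -0.04 for miR-29a, -0.05 for miR-27a, -0.25 for let-7g and 0.31 for let-7i. Subtracting the diet means from the 22 lanes kept 8 of the 10 and brought in miR-218 and miR-376c.

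The lowest r over 22 lanes belonged to miR-1965 (-0.74), miR-1186 (-0.73), miR-3471 (-0.69), miR-34c (-0.68) and miR-125a-5p (-0.68). Without the 3 lanes these were -0.25, -0.38, 0.40, -0.26 and -0.31. miR-3471 thus changed sign. Its level in basal 1 was 3.91 above the mean of the other basal lanes on the log2 scale. It exceeded background in only 11 of the 22 lanes, with a median count of 38.5.

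miR-141 kept its likeness without basal 1 and without all 3 lanes led by miR-720. Its r without flaxseed 3 alone, the lane highest in both miR-21 (15.70) and miR-141 (13.47), is not given. The r of miR-141 with miR-21 was 0.69 over 22 lanes (rho = 0.77), 0.80 without basal 1 (n = 21 lanes, rho = 0.74) and 0.74 without the 3 lanes (n = 19 lanes, rho = 0.70). It belongs to the miR-200 family, whose other 4 members also ranked high in the 19 lanes. The 10 highest there were miR-141 (0.74), miR-146b (0.70), miR-200a (0.69), miR-200c (0.67), miR-429 (0.63), miR-205 (0.61), miR-200b (0.61), miR-96 (0.61), miR-1944 (0.51) and miR-183 (0.45), against a median of -0.05. All 5 miR-200 family members were thus among the 10. miR-205 is a marker of basal epithelial cells, miR-96 and miR-183 come from 1 cluster expressed in epithelia and sensory cells, and miR-146b is a relative of miR-146a. This set of 19 lanes was ranked after values had been seen, and several of its members were not alike to miR-21 in the other sets of lanes. miR-146b had r = -0.28 over 22 lanes and -0.50 without basal 1, and miR-96 had -0.14 and -0.49. miR-183 had 0.02 and -0.06, and miR-1944 had -0.08 and 0.78. Within the family, miR-200b had 0.15 and 0.30, miR-200a 0.55 and 0.44, miR-429 0.51 and 0.64 and miR-200c 0.27 and 0.58, and miR-205 outside it had 0.04 and 0.25.

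The family's mature sequences show what its members share, with the seed in capitals (RefSeq, GRCm38.p6).
miR-141-3p: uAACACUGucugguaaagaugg
miR-200a-3p: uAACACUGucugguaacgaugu
miR-200b-3p: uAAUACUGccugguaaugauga
miR-200c-3p: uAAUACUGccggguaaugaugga
miR-429-3p: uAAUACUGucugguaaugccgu
miR-141 and miR-200a have the seed AACACUG and the other 3 have AAUACUG. miR-141 and miR-200c lie together on chromosome 6 and miR-200a, miR-200b and miR-429 together on chromosome 4. In the 19 lanes the likeness thus ran over both seeds and both clusters. The members are not separate observations, since miR-141 and miR-200c had r = 0.92 with each other over the 19 lanes. Whether a probe also counts other members of the family was not tested. None of them has the seed of miR-21.

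The epithelial miRNAs varied far more between glands than miR-21 did. Over the 19 lanes miR-21 spanned a 1.78-fold range, miR-141 a 10.9-fold range, miR-200c an 8.12-fold range and miR-205 a 21.7-fold range. The lanes at the ends show the relation. Flaxseed 6 and flaxseed 2 had the lowest miR-21 of the 19, at 14.22 and 14.27, and flaxseed 2 also had the lowest miR-141 (9.05) and miR-200c (7.82). Basal 4 followed with miR-21 at 14.42, miR-141 at 10.13 and miR-200c at 8.50. At the other end flaxseed 5 had miR-21 at 15.05, miR-141 at 12.15 and the highest miR-200c, at 10.84. Oil 6 had miR-21 at 15.01 with miR-141 at 12.22 and miR-200c at 10.14. The relation was not strict, since flaxseed 6 had more miR-141 (10.74) than flaxseed 2 at about the same miR-21.

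By diet, miR-141 stood at 10.26, 11.23, 11.34, 10.13 and 12.24 log2 CPM in the basal lanes 1, 2, 3, 4 and 6. In oil it stood at 11.84, 12.51, 10.82, 11.42 and 12.22. It ran from 9.05 through a median of 11.02 to 13.47 in flaxseed. In SDG it ran from 10.72 through 11.42 to 11.999. The diets overlapped for miR-141, as they did for miR-21. Over miR-141, miR-200a, miR-200b, miR-200c, miR-429 and miR-205 in 6 comparisons each, the lowest of 36 adjusted p-values was 0.428 (edgeR), for miR-200a in flaxseed against oil, and without the 3 lanes it was 0.268, for miR-141 in the same comparison. The background of called probes was 0% over 22 lanes, and 11.6% of 242 in flaxseed against oil without the 3 lanes.

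Within diets, after the diet means were subtracted from the 19 lanes, r was 0.72 for miR-141, 0.66 for miR-200c and 0.59 for miR-205. Leaving out each of the 19 lanes in turn gave 0.66 to 0.77 for miR-141, 0.56 to 0.73 for miR-200c and 0.46 to 0.72 for miR-205. Without flaxseed 6 and flaxseed 2, the 2 of the 19 lanes farthest from the median of miR-21, r was 0.64 for miR-141, 0.51 for miR-200c, 0.43 for miR-200b, 0.41 for miR-205 and 0.20 for miR-1944. All 5 family members stayed among the 10 highest under DESeq2 size factors, the 100 most abundant probes, and total counts with or without miR-720. Only 3 of the 5 did in the authors' deposited log2 table, and 4 of the 5 without flaxseed 6 and flaxseed 2. Scaling by positive controls or by housekeeping mRNAs left 0 of the 5 among the 10 highest and raised the median r of all probes to 0.75 and 0.60.

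**Figure D4:**
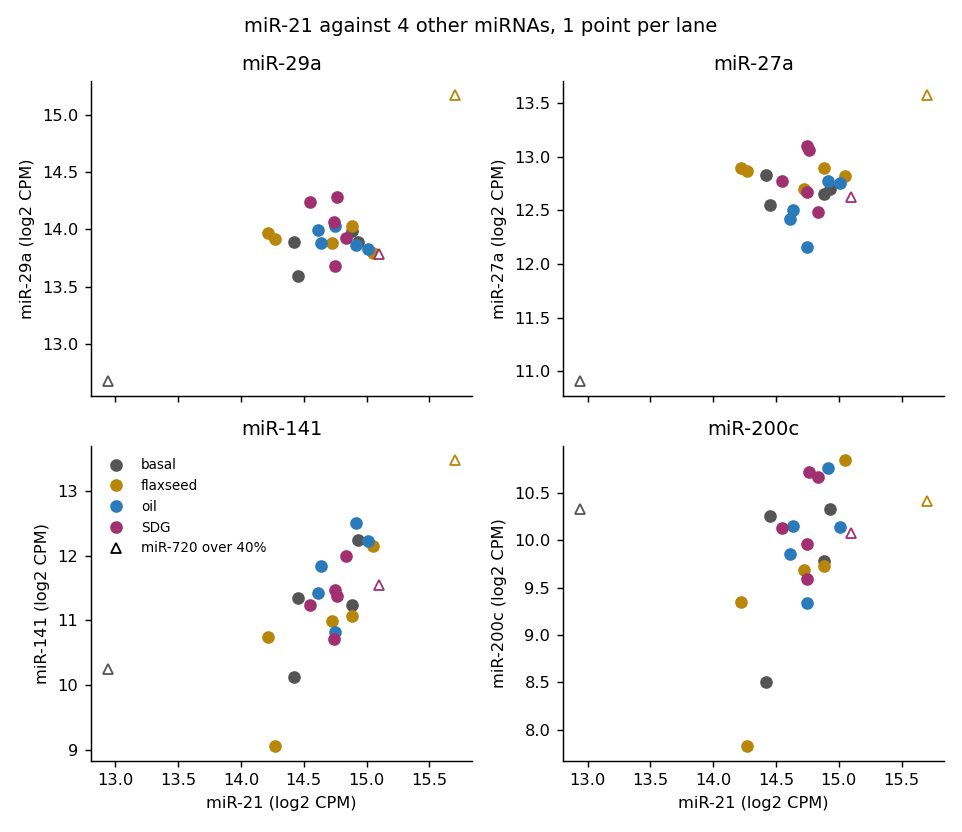
Each panel plots the log2 CPM of 1 miRNA against that of miR-21, 1 point per lane, coloured by diet, with open triangles for the 3 lanes with miR-720 over 40%. miR-29a and miR-27a follow miR-21 only through the triangles (r = -0.04 and -0.05 over the other 19 lanes), while miR-141 and miR-200c are higher where it is higher over the 19 lanes (r = 0.74 and 0.67).

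**Figure D5:**
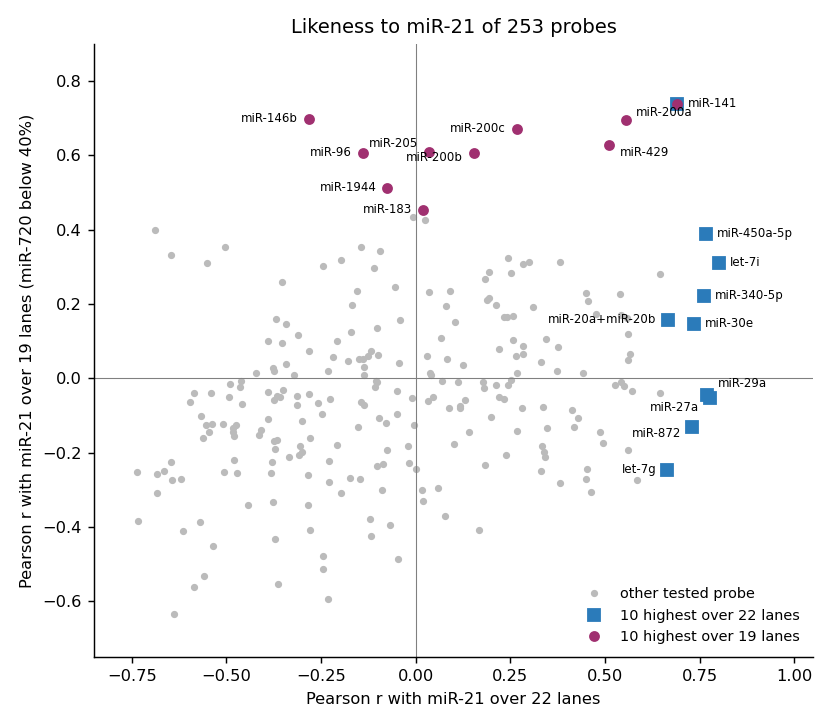
Each point is 1 of 253 tested probes, with Pearson's r with miR-21 over 22 lanes on the x axis and over the 19 lanes with miR-720 below 40% on the y axis. Squares are the 10 highest over 22 lanes and circles the 10 highest over 19. miR-141 is the only probe in both sets, at 0.69 and 0.74.

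A set of 14 marker miRNAs, chosen with earlier results of these data known, was correlated with miR-21 by permutation tests, adjusted over the 14. They stand for cell types of the gland, except miR-29a, miR-155 and miR-146a, which are in none of the cell type lists used below. Over 22 lanes 3 passed for Pearson's r and 0 for Spearman's rho. miR-29a had r = 0.77 (permutation p = 0.00271, adjusted p = 0.0379) with rho = 0.05 (permutation p = 0.837, adjusted p = 0.837). The endothelial miR-126-3p had r = 0.56 (permutation p = 0.00914, adjusted p = 0.0452) with rho = 0.13 (permutation p = 0.551, adjusted p = 0.787). miR-155 had r = -0.62 (permutation p = 0.00969, adjusted p = 0.0452) with rho = -0.34 (permutation p = 0.117, adjusted p = 0.639). All 3 rested on few lanes. Without basal 1 and flaxseed 3, the 2 lanes farthest from the median of miR-21, none of them passed, and r was -0.11 for miR-29a, -0.13 for miR-126-3p and -0.20 for miR-155. The name of the miR-155 probe carries the factor 0.022, and that factor times the count of the strongest positive control exceeded the probe's own count in 21 of 22 lanes. How much of that count is miR-155 was not tested.

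Over the 19 lanes a different pair of markers passed for r, both epithelial. miR-200c had r = 0.67 (permutation p = 0.00181, adjusted p = 0.0253) with rho = 0.62 (permutation p = 0.00613, adjusted p = 0.0858). miR-205 had r = 0.61 (permutation p = 0.00534, adjusted p = 0.0374) with rho = 0.53 (permutation p = 0.0217, adjusted p = 0.152). Neither rho passed adjustment. Over 22 lanes r was 0.27 for miR-200c (permutation p = 0.205, adjusted p = 0.319) and 0.04 for miR-205 (permutation p = 0.867, adjusted p = 0.867).

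The other markers did not pass in the 19 lanes. r was -0.10 for miR-150 and -0.08 for miR-142-3p of lymphocytes (permutation p = 0.695 and 0.753, adjusted p = 0.861 for both). It was 0.08 for miR-223 of myeloid cells (permutation p = 0.735, adjusted p = 0.861), -0.25 for miR-451 of red cells (permutation p = 0.303, adjusted p = 0.708) and -0.19 for miR-126-3p (permutation p = 0.428, adjusted p = 0.857). The muscle marker miR-1 had -0.43 (permutation p = 0.0690, adjusted p = 0.286) and miR-378, which is abundant in fat, had -0.41 (permutation p = 0.0818, adjusted p = 0.286). The mesenchymal miR-199a-3p had 0.12 and the smooth muscle miR-143 had 0.07 (permutation p = 0.627 and 0.769, adjusted p = 0.861 for both). miR-155 had -0.27 (permutation p = 0.262, adjusted p = 0.708), miR-146a had 0.04 and miR-29a had -0.04 (adjusted p = 0.861 for both).

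As whole lists in the 19 lanes, the median r with miR-21 was 0.67 over the 5 luminal epithelial members (0.61 to 0.74), -0.09 over 4 lymphocyte members, -0.20 over 2 endothelial members, -0.25 over 3 red cell members, -0.48 over 5 striated muscle members, 0.07 over 5 mesenchymal and smooth muscle members and -0.12 over 3 adipocyte members. All listed members of these 7 lists were on the panel and tested. The summed level of the luminal list was read over all lanes of each diet, not only the 19. It ran from 10.96 to 14.31 log2 CPM in flaxseed and from 11.91 to 13.79 in basal lanes. In oil lanes it ran from 12.51 to 14.12 and in SDG lanes from 12.70 to 13.55. Epithelial, immune, endothelial, muscle and fat markers were thus all measured in these glands, and the part that the share of epithelial cells has in the miR-21 level was not tested.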

How the data were processed

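miRNA levels were measured in 22 mammary glands, 1 lane each. Per the labels, the authors isolated total RNA with a mirVana kit and counted it on a NanoString nCounter panel, and the deposited lane files hold raw counts. The authors' deposited log2 table of 238 miRNAs served as an alternative. Its scaling is not given in the sources used here, and its lanes correlated with log2 counts at a median r of 0.98. The replicates are separate mice.

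A probe was tested if it exceeded the mean plus 2 SD of 8 negative controls in at least 5 lanes (254 of 599). Diets were compared with edgeR 4.0.16 in R 4.3.3 (quasi-likelihood fit over all 22 lanes, TMM scaling, Benjamini-Hochberg over 254 probes, threshold 0.05) and with exact permutation tests (SciPy 1.17.1). Standard errors were taken from the fold change and F. Levels are log2 CPM with 1 count added. Marker correlations used 100000 permutations. The fits were tested on simulated data. The same 14 markers were listed for every setting. Named partners are the 10 highest (also within diets) and 5 lowest r over 22 lanes, with the 10 highest over 19 lanes added later; from each list the highest and lowest member was named where a comparison is described. The miRNA, the lists and the markers were chosen with earlier results of these data known.

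Alternatives were DESeq2 1.42.0, limma-voom (limma 3.58.1), other scalings, filters, background subtraction, fits of 2 diets, a replicate block, the deposited table, and lanes left out. The deviations of same-numbered lanes correlated above 0.1 in 12 of 31 pairs (range -0.62 to 0.53), and the numbers were not read as pairs. The share for lanes of different numbers is not given.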

Additional observations from a re-analysis of the deposited data

Results flagged for a closer look

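The level of miR-21 and of 6 epithelial miRNAs (the miR-200 family and miR-205) was searched in each diet for a lane far from the others, 28 groups in all, of which 2 were singled out. Chance alone singles out about 1 in 20 groups. miR-21 in basal 1 stood at 12.94 log2 CPM, while the other 4 basal lanes lay between 14.42 and 14.93. Basal 1 is also the lane with the highest miR-720 share, 65.4%. miR-200a in flaxseed 2 stood at 8.02 log2 CPM, with the other 5 flaxseed lanes between 9.99 and 11.10; this lane also had the lowest miR-141 and miR-200c of all 22.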

How the results depend on the processing

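miR-21 passed no diet test in any setting. Over all settings and lanes left out, the lowest adjusted p was 0.0522 in edgeR (flaxseed against basal, housekeeping scaling, where miR-21 stood at 2.16 and the median of all probes at 1.39) and 0.0519 in the exact permutation tests (oil against SDG, positive control scaling). The geometric mean of the housekeeping counts, by which that scaling divides, was 135 in flaxseed 3 and 1070 to 4407 in the other 21 lanes. The deposited table, voom, the stricter filter and background subtraction changed no call. The fit with the cartridge as a block was not run, since the lane files used here name none. miR-21 was above background in all lanes, by 53.2 times or more.

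Directions turned as follows on the log2 scale, and the cause was not tested. For flaxseed against basal, leaving out the 3 lanes led by miR-720 gave -0.022 (edgeR) and -0.045 (permutation). For SDG against basal, positive control scaling gave -0.38 (edgeR), where the median of all probes was -0.50. For flaxseed against oil, edgeR gave -0.28 with positive control scaling, -0.25 with total counts, -0.071 with total counts without miR-720, -0.11 with no filter, -0.13 without the 3 lanes and -0.03 in the deposited table. The permutation differences were -0.38, -0.29, -0.12, -0.16 and -0.03 for the same settings other than the filter, and -0.037 with DESeq2 size factors. For flaxseed against SDG, edgeR gave -0.12 with total counts, -0.090 with total counts without miR-720, -0.050 with no filter and -0.043 without the 3 lanes. The permutation differences were -0.16, -0.14 and -0.10 for these settings other than the filter, and -0.038 with DESeq2 size factors. For oil against SDG, edgeR gave 0.77 with positive control scaling, 0.12 with total counts, 0.060 with no filter, 0.092 without the 3 lanes, 0.041 with only these 2 diets, 0.20 in the deposited table, and 0.00055 with DESeq2 or its size factors. The permutation differences were 0.76, 0.14, 0.057 (without the 3 lanes) and 0.20 (deposited table).

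With the replicate number as a block, edgeR gave 0.39, 0.35 and 0.32 for flaxseed, oil and SDG against basal, 0.036 for flaxseed against oil, 0.075 for flaxseed against SDG, 0.038 for oil against SDG and F = 0.62 for any diet. The blocked permutation differences were 0.43, 0.46, 0.40, -0.026, 0.018 and 0.057. The block called 0 probes in each comparison. Of 22 lanes 3 correlated best with a lane of their own number, and the count by chance is not given.

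Leaving out 1 lane in turn gave edgeR values of 0.15 to 0.57, 0.12 to 0.46 and 0.12 to 0.47 for flaxseed, oil and SDG against basal, -0.18 to 0.22 for flaxseed against oil, -0.15 to 0.21 for flaxseed against SDG, -0.066 to 0.062 for oil against SDG and F from 0.25 to 1.25. The permutation differences spanned 0.13 to 0.63, 0.11 to 0.61, 0.12 to 0.61, -0.16 to 0.14, -0.16 to 0.14 and -0.062 to 0.057.

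The number of 14 markers passing for r, 3 over 22 lanes, was 12 with housekeeping scaling, 11 with positive control scaling, 8 with total counts, 1 with total counts without miR-720, 1 with the 100 most abundant probes, 5 in the deposited table, 5 with diet means subtracted, 1 without the 2 lanes farthest from the median, and 0 to 4 with 1 lane left out (0 without basal 1, basal 3 or flaxseed 3). r turned to -0.045 (miR-29a) and -0.19 (miR-126-3p) without the 3 lanes, and to -0.11 and -0.13 without the 2 farthest lanes. For miR-155 it turned to 0.66 with housekeeping and 0.17 with positive control scaling. With 1 lane left out, r of miR-205 spanned -0.12 to 0.25.

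The count of called probes, 0 in each comparison, became 62 for flaxseed against basal with housekeeping scaling, which also gave 34 for any diet. All 62 were higher with flaxseed, and the housekeeping mean of flaxseed 3, at 135, was far below that of every other lane. The part of flaxseed 3 in these calls was not tested. Positive control scaling gave 5 for flaxseed against oil, 16 for oil against SDG and 6 for any diet. No filter gave 1 for oil against basal and 1 for flaxseed against oil. Leaving out the 3 lanes gave 1, 28 and 1 in edgeR for oil against basal, flaxseed against oil and any diet. DESeq2 over all 22 lanes gave 6, 30 and 8 in the same comparisons. Leaving out 1 lane gave 0 to 9 for flaxseed against oil (9 without basal 1, 7 without flaxseed 6 or oil 6, 6 without flaxseed 3 and 1 without oil 2) and 0 elsewhere.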
